A study of Danio rerio with 3 samples.

Results

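The 40 genes described here encode the structural and calcium-binding proteins of covering epithelia: 15 keratins, the keratinocyte-associated gene krtcap2, the plakins envoplakin (evpla) and periplakin (ppl), 14 annexins and 8 S100 proteins. They were chosen by name, as genes whose symbol begins with krt, anxa or s100, together with evpla and ppl, among 8793 genes that had a probe set annotated with 1 symbol. The keratin genes cyt1 and cyt1l, which the same choice covers, had no probe set annotated to them alone and are not analysed here. A probe set is a group of short oligonucleotides that report 1 transcript, and for a gene with several of them, the one with the highest average signal was used.

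The data came from zebrafish scales, bony plates of the skin that are covered by epidermis and carry osteoblasts and osteoclasts. The study's title asks how polycyclic aromatic hydrocarbons act on those bone cells. There was 1 Affymetrix Zebrafish Genome array for each of 3 groups: scales incubated with benzo[c]phenanthrene (BcP) at 1 nM, scales incubated with 3-hydroxybenzo[c]phenanthrene (3-OHBcP) at 1 nM, and control scales without either compound. All scales were taken from anaesthetised fish and held in L-15 culture medium at 15 °C for 6 h, and the strain, age and number of fish, as well as any solvent in the control medium, are not given in the sources used here. With 1 array per group no difference has a replicate check, so nothing was tested, there are no p-values or errors, and every statement describes these 3 arrays. In whole scales, fewer cells of a type and less RNA per cell cannot be told apart.

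Keratins are intermediate filament proteins that assemble as pairs of a type I and a type II chain and give epithelial cells their mechanical strength. Plakins tie these filaments to desmosomes and to the layer under the plasma membrane. Annexins bind acidic phospholipids when calcium is present, and S100 proteins are small calcium-binding dimers of the EF-hand family. The families meet in one complex, since in mammals an S100A10 dimer joins 2 annexin A2 molecules at the inner face of the plasma membrane.

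The deposited values are log2 signal. Each probe set has its own affinity, so differences were taken only between arrays for the same gene. Where probe sets of different genes are ranked or summed, as for the level filter, the percentiles and the marker sums, this describes the brightness of the probe sets and not amounts of transcript. A level filter kept genes whose mean reached log2 5.35, the midpoint of the 15502 probe sets that are not array controls. Of the 40 genes, 33 passed it, namely 12 keratins, krtcap2, both plakins, 12 annexins and 6 S100 genes, as did 5248 of all genes. No gene of the 33 had a control value below the filter, so none passed through a treated array alone. The annexin gene anxa2b, at 5.43 on all 3 arrays, lay just inside the filter, and the keratin gene krt1-19e, with a mean of 4.97, lay just outside it. In all, 24 of the 40 genes had a probe set at or above the 90th percentile of probe-set means in brightness, as did 1180 of all 8793 genes.

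**Figure D1:**
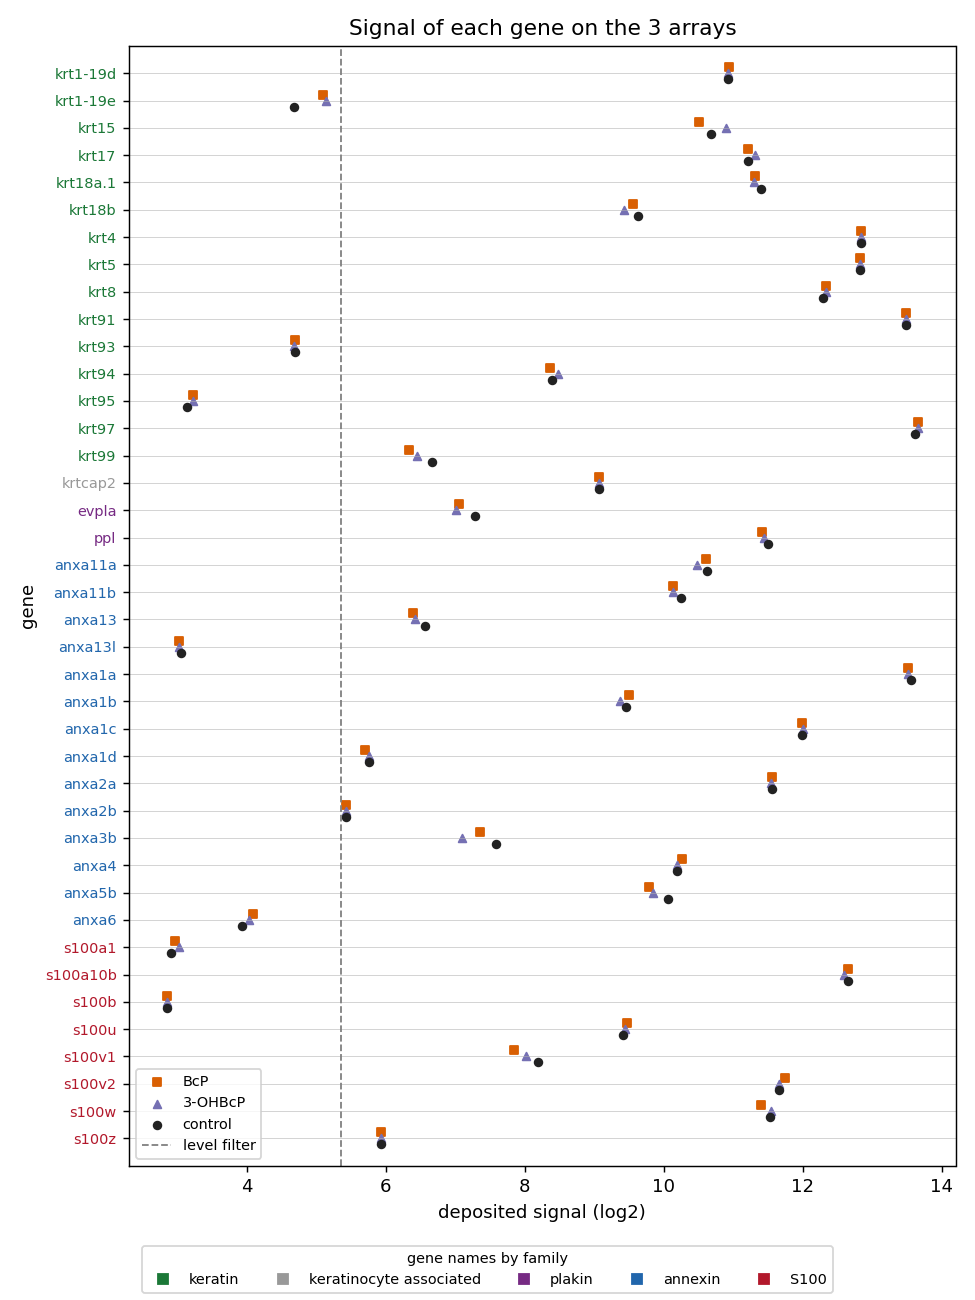
Deposited log2 signal (x axis) of all 40 genes (y axis, names coloured by family) on the BcP array (squares), the 3-OHBcP array (triangles) and the control array (circles). The 3 symbols of most genes lie close together, the dashed line marks the level filter at 5.35, and krt1-19e is to the left of it with both treated arrays above the control.

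The 2 markers of epidermis were far above the level filter and equal on all arrays. The keratin gene krt4, a type II keratin of the outer epidermis of zebrafish, was at 12.83 with BcP, 12.83 with 3-OHBcP and 12.83 in the control. The keratin gene krt5, whose mammalian counterpart is the type II keratin of basal keratinocytes, was at 12.82 on each array. Both values were identical to every deposited digit. Exact ties are common in these deposited values, where 18.6% of all kept genes held 1 value on all 3 arrays, and the 6 genes of the set that did so (krt4, krt5, krt91, krtcap2, anxa2b and s100z) made up 18.2% of the 33. A difference of 0 is therefore no precise measure of no change.

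Markers of other cells did differ between the arrays, and their part in the results was not tested. Of the leukocyte markers 5 of 6 were measured, and their summed linear signal was 1795 with BcP, 1425 with 3-OHBcP and 1558 in the control. All 5 were higher with BcP than in the control, as were 1979 of all 5248 kept genes. Among the 5, lyz was at 5.50 with BcP and 5.27 on both other arrays, so it reached the level filter only through the BcP array. The summed signal of the 5 measured of 6 osteoblast markers, most of it from the collagen genes col10a1a and col10a1b, was 11673 with BcP, 10858 with 3-OHBcP and 9852 in the control. Of the 4 erythrocyte markers 2 were measured, and only the haemoglobin gene hbaa1 passed the level filter, at 10.24 with BcP, 9.90 with 3-OHBcP and 9.87 in the control, while slc4a1a was at 3.29 on all arrays. For skeletal muscle, 6 of 7 markers were measured and 2 kept, and the sum was 428 with BcP, 348 with 3-OHBcP and 355 in the control. The 4 osteoclast markers summed to 2297 with BcP, 2159 with 3-OHBcP and 2218 in the control. Of 4 ionocyte and mucous cell markers only agr2 was measured, with 1524, 1373 and 1373 in the same order. The 3 measured of 7 pigment cell markers and the 1 measured of 4 blood vessel markers all lay below the level filter.

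The median of the set was level with the control for either compound, but in both cases it fell on genes that were exactly equal. The mean log2 difference of the 33 genes was -0.063 with BcP and -0.056 with 3-OHBcP. Over all kept genes it was -0.014 with BcP and -0.027 with 3-OHBcP. With 1 array per group these gaps have no replicate check. With BcP, 16 of the 33 genes were lower, 7 higher and 10 exactly equal (25.2% of all genes were), with a median log2 difference of 0, while 1945 of all 5248 genes were lower, 1979 higher and 1324 equal, also with a median of 0. With 3-OHBcP, 16 were lower, 8 higher and 9 equal (32.6% of all genes were), beside 2201 lower, 1335 higher and 1712 equal over all genes, and both medians were again 0. Many of these signs belong to differences too small to have a settled direction. With each array centred on its median, 30 were lower and 3 higher with BcP, and 28 lower and 5 higher with 3-OHBcP. Over all genes 3856 were then lower and 1392 higher with BcP, and 4241 lower and 1007 higher with 3-OHBcP. After quantile normalization 21 were lower and 11 higher with BcP, and 21 lower and 9 higher with 3-OHBcP, while over all genes 2006 were lower and 3207 higher with BcP, and 1955 lower and 3241 higher with 3-OHBcP. The control array held the strictly highest value for 12 of the 33 genes (36.4%) and for 27.1% of all genes. Both compounds were compared with this same array, so a direction they share is no independent repeat.

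To separate larger differences from these, a fold of 1.2 (0.26 on the log2 scale) was used, and a fold of 1.5 beside it. No gene of the 33 reached 1.5-fold in any comparison, where 0.705% of all kept genes did so with BcP against the control, 0.21% with 3-OHBcP against the control and 0.61% with 3-OHBcP against BcP. At 1.2-fold, 3 of the 33 were apart with BcP (9.09%), all lower, beside 9.13% of all genes in either direction, 2.93% higher and 6.19% lower. With 3-OHBcP, 2 were apart (6.06%), both lower, beside 6.88% in either direction, 1.68% higher and 5.2% lower. Between the compounds 2 were apart, 1 in each direction, beside 6.92% in either direction, 3.49% higher and 3.43% lower with 3-OHBcP. Between the compounds 13 of the 33 genes were lower with 3-OHBcP, 11 higher and 9 equal. Over all genes 2251 were lower, 1369 higher and 1628 (31%) equal. With each array centred on its median, 9 of the 33 were lower with 3-OHBcP than with BcP and 24 higher, beside 1923 lower and 3325 higher over all genes. Each of the shares past 1.2-fold is near its background, so the counts by themselves say nothing particular to the set.

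**Figure D2:**
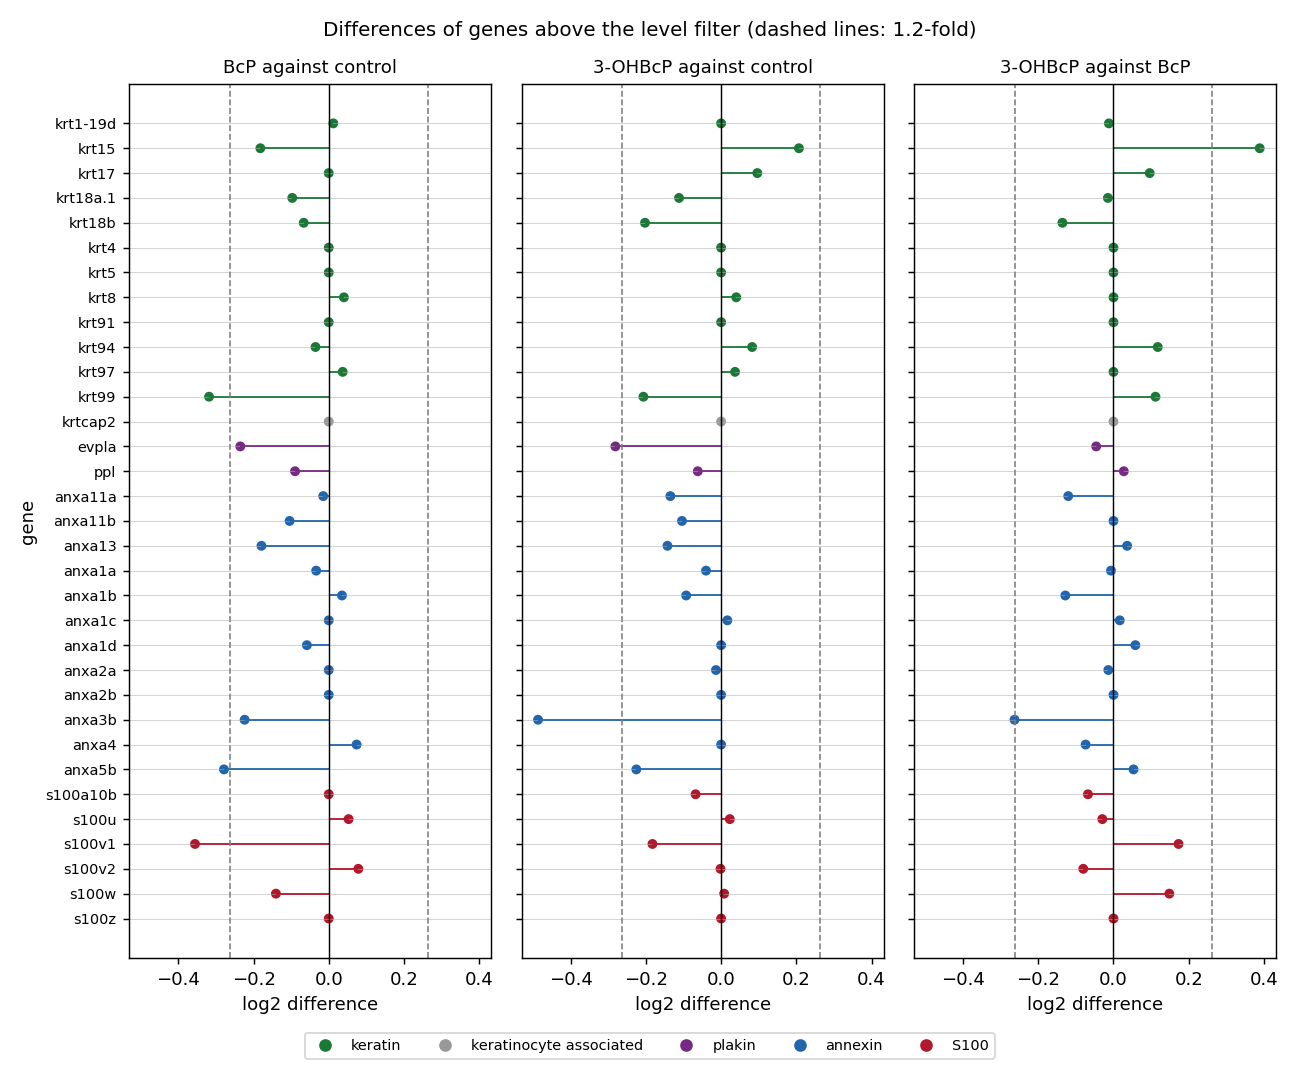
Log2 difference (x axis) of each of the 33 genes above the level filter (y axis) for BcP against control, 3-OHBcP against control and 3-OHBcP against BcP, coloured by family, with dashed lines at 1.2-fold. The genes past a line are s100v1, krt99 and anxa5b in the first panel, anxa3b and evpla in the second, and krt15 and anxa3b in the third.

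Among all genes at or above the 90th percentile of brightness, 6.95% were 1.2-fold apart with BcP and 4.15% with 3-OHBcP, smaller shares than over all kept genes. Of the 24 members there, 1 was apart with BcP (anxa5b) and 0 with 3-OHBcP. Between the compounds the share of all genes was 7.54% there, against 6.92% over all kept genes, and 1 of the 24 (krt15) was apart. The other genes past 1.2-fold against the control had means between 6.48 (krt99) and 8.01 (s100v1).

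**Figure D3:**
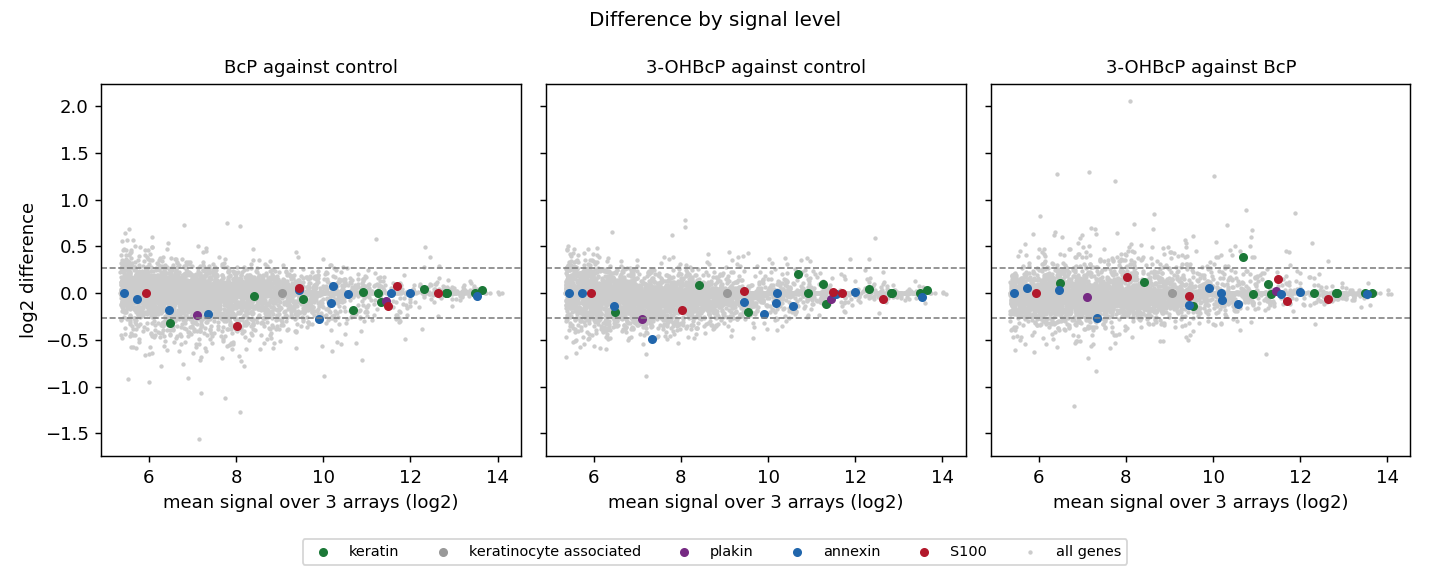
Log2 difference (y axis) against mean log2 signal over the 3 arrays (x axis) for all 5248 kept genes (grey) and the 33 members (coloured by family), in 3 panels for the 3 comparisons, with dashed lines at 1.2-fold. The 24 members at or above the 90th percentile lie within the lines except anxa5b for BcP against control and krt15 for 3-OHBcP against BcP.

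Among the keratins, krt15 separated the compounds most. Its mammalian counterpart is a type I keratin of basal keratinocytes. It had a log2 signal of 10.89 with 3-OHBcP, 10.50 with BcP and 10.69 in the control. The 3-OHBcP array was the high one and the BcP array the low one, with the control between them. The difference was -0.18 for BcP against the control, 0.21 for 3-OHBcP against the control and 0.39 for 3-OHBcP against BcP, a fold of 1.31 at the same dose and time. The compounds differ in structure by the hydroxyl group that 3-OHBcP carries, they formed the 1 pair compared, and with 1 array each no interval can be put on this difference. Across the 8 alternative processings that difference of krt15 ran between 0.38 and 0.41, past 1.2-fold in each.

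The keratin gene krt99 was lower with both compounds. It had 6.34 with BcP, 6.45 with 3-OHBcP and 6.66 in the control, and the control array was the highest. The differences were -0.32 with BcP, past 1.2-fold, and -0.21 with 3-OHBcP, and both used the same control array. With 32 added to the linear value, which damps dim genes, the BcP difference was -0.24 and no longer past 1.2-fold.

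Keratins of simple epithelia, the single-layered linings for which the KRT8 and KRT18 pair is known in mammals, differed by little. The type II gene krt8 was at 12.33 with BcP, 12.33 with 3-OHBcP and 12.29 in the control. Its type I partner krt18a.1 was at 11.31 with BcP, 11.29 with 3-OHBcP and 11.41 in the control. The second krt18 gene, krt18b, was at 9.56 with BcP, 9.42 with 3-OHBcP and 9.63 in the control. The type I genes were thus lowest on the 3-OHBcP array (-0.11 for krt18a.1 and -0.20 for krt18b against the control), while krt8 lay 0.04 above the control with both compounds, a difference that turned to -0.01 with BcP when each array was centred on its median.

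The remaining kept keratins lay within 0.12 of each other across arrays. For krt17, whose mammalian counterpart marks skin appendages and wounded epidermis, the signal was 11.22 with BcP, 11.32 with 3-OHBcP and 11.22 in the control. For krt94 it was 8.36 with BcP, 8.47 with 3-OHBcP and 8.39 in the control. For krt97, the values were 13.66 with each compound and 13.62 in the control. These genes and krt15 were highest with 3-OHBcP, in krt97 level with BcP. The gene krt1-19d differed by 0.01 with BcP and 0 with 3-OHBcP, and krt91 was at 13.49 on all arrays. The gene krtcap2, which shares the keratin prefix but encodes a subunit of the oligosaccharyltransferase that glycosylates new proteins, was at 9.06 on all arrays.

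The keratin with the widest gap was one of those below the level filter. The gene krt1-19e, a type I keratin of basal epidermal cells in zebrafish, had 5.10 with BcP, 5.13 with 3-OHBcP and 4.67 in the control. Both treated arrays lay above the control, by 0.43 with BcP and 0.47 with 3-OHBcP. Its second probe set had 4.68 with BcP, 4.66 with 3-OHBcP and 4.47 in the control, again above the control by 0.21 with BcP and 0.19 with 3-OHBcP. Genes below the filter leaned the same way. Without the filter, 3825 of all 8793 genes were higher and 2472 lower with BcP, beside 1979 and 1945 with it. With 3-OHBcP, 3012 were higher and 2754 lower without the filter, beside 1335 and 2201 with it. The other keratins below the filter were krt93, with differences of 0.01 with BcP and -0.01 with 3-OHBcP, and krt95, with 0.08 for each compound.

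Both plakins were lower with each compound, against the same control array. Of all 5248 kept genes, 1945 were lower with BcP and 2201 with 3-OHBcP. Envoplakin and periplakin are precursors of the cornified envelope in mammalian epidermis, where they form heterodimers. The gene evpla had 7.05 with BcP, 7.003 with 3-OHBcP and 7.28 in the control. Both treated arrays lay below the control, by -0.24 with BcP and -0.28 with 3-OHBcP, of which the second passed 1.2-fold. That difference was -0.23 when arrays were quantile-normalized and -0.23 with 32 added to the linear value, short of 1.2-fold in both. The gene ppl had 11.41 with BcP, 11.44 with 3-OHBcP and 11.50 in the control, with differences of -0.09 with BcP and -0.06 with 3-OHBcP. The second envoplakin gene, evplb, belongs to a partner list and was at 10.55 on all arrays.

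Of the 12 kept annexins, 7 were lower, 2 higher and 3 equal with BcP (median -0.02). Over all kept genes 1945 were lower, 1979 higher and 1324 equal. With 3-OHBcP, 8 annexins were lower, 1 higher and 3 equal (median -0.07). Over all kept genes 2201 were then lower, 1335 higher and 1712 equal, and the median of all genes was 0 with either compound. The medians of all genes themselves shift with the scaling. With BcP the shift was -0.05 after centring and 0.02 after quantile normalization, and with 3-OHBcP it was -0.03 and 0.02. These shifts are no measure of spread for the annexin medians, since centring moves annexins and all genes alike. With 1 array per group neither annexin median has a replicate check. The counts also rest on the probe set used for each gene. The other probe set of anxa13, counted lower, lay at 0.16 with each compound. With 3-OHBcP, those of anxa4 and anxa1d, counted equal, lay at 0.29 and -0.0015. Those of anxa5b, counted lower, lay at -0.25, -0.0018 and 0. Taking the mean over each gene's probe sets gave 0.009 for anxa13, 0.15 for anxa4 and -0.12 for anxa5b with 3-OHBcP.

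The largest difference among the kept genes was that of anxa3b. It had 7.10 with 3-OHBcP, 7.36 with BcP and 7.58 in the control. The 3-OHBcP array was lowest and the control highest, with differences from the control of -0.49 for 3-OHBcP, a fold of 1.40, and -0.22 for BcP. Between the compounds the difference was -0.26, which lay on the 1.2-fold threshold and fell short of it when arrays were centred (-0.25), when they were quantile-normalized (-0.25) and with 32 added to the linear value (-0.22). The 3-OHBcP difference from the control was past 1.2-fold in each alternative that kept the gene, between -0.51 and -0.41. As anxa3b had 1 probe set, only centring, quantile normalization and the added 32 could move this value.

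The gene anxa5b encodes the zebrafish counterpart of annexin A5, known for binding the phosphatidylserine that dying cells expose. Its probe set used here had 9.79 with BcP, 9.84 with 3-OHBcP and 10.06 in the control. Both treated arrays lay below the control, by -0.28 with BcP, past 1.2-fold, and -0.23 with 3-OHBcP. By its name, this probe set may match more than 1 transcript. The gene's other 3 probe sets differed with BcP by -0.25, -0.03 and 0, and with 3-OHBcP by -0.25, -0.0018 and 0. Their means were 2.95, 8.73 and 7.93 in that order, so the one at -0.25 lay far below the level filter. With probe sets of that kind left out, the BcP difference of anxa5b was -0.03, with all 4 averaged it was -0.14, and after quantile normalization it was -0.25, short of 1.2-fold in each.

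The annexin A1 genes were near the control. Mammalian annexin A1 is known as a mediator that limits inflammation. The gene anxa1a was at 13.52 with BcP, 13.51 with 3-OHBcP and 13.55 in the control. The gene anxa1b was at 9.36 with 3-OHBcP, 9.49 with BcP and 9.46 in the control, and the difference of 3-OHBcP from BcP was -0.13. The gene anxa1c differed from the control by 0 with BcP and 0.02 with 3-OHBcP. For anxa1d the probe set used differed by -0.06 with BcP and 0 with 3-OHBcP, and the second, also named as one that may match others, by -0.30 with BcP and -0.0015 with 3-OHBcP.

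The annexin A2 and S100A10 genes, whose mammalian products form the complex described above, each differed little from the control. The gene anxa2a was at 11.56 with BcP, 11.55 with 3-OHBcP and 11.56 in the control. The gene s100a10b was at 12.66 with BcP, 12.59 with 3-OHBcP and 12.66 in the control. Both were equal to the control with BcP, as were 25.2% of all kept genes. With 3-OHBcP anxa2a differed by -0.01 and s100a10b by -0.07. The second annexin A2 gene, anxa2b, was equal on all arrays.

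Further annexins showed small differences. The gene anxa11b was at 10.14 with each compound and 10.24 in the control. The gene anxa11a was at 10.61 with BcP, 10.49 with 3-OHBcP and 10.62 in the control. The gene anxa4 was at 10.26 with BcP, 10.19 with 3-OHBcP and 10.19 in the control, but its second probe set had 9.53 with BcP, 9.81 with 3-OHBcP and 9.52 in the control, which put 3-OHBcP 0.29 above the control where the first gave 0. For anxa13 the probe set used had 6.39 with BcP, 6.42 with 3-OHBcP and 6.57 in the control, while the second, with a mean nearer the level filter, had 5.46 with BcP, 5.46 with 3-OHBcP and 5.30 in the control. The 2 probe sets of anxa13 therefore had opposite signs against the control, so no direction can be given for this gene. Below the filter, anxa6 differed by 0.16 with BcP and 0.10 with 3-OHBcP and anxa13l by -0.04 with each compound.

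**Figure D4:**
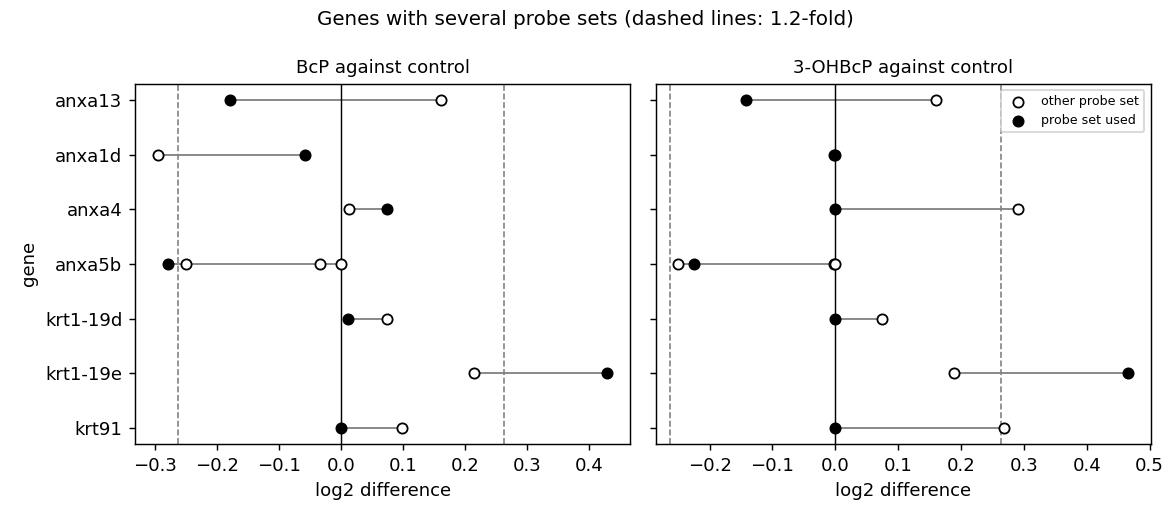
Log2 difference (x axis) of every probe set of the 7 genes with several (y axis), for BcP against control and 3-OHBcP against control, with filled circles for the probe set used, open circles for the others and dashed lines at 1.2-fold. The 2 probe sets of anxa13 lie on opposite sides of 0 in both panels, and both of krt1-19e lie above 0.

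In all, 7 genes of the set had several probe sets, 16 together. No gene of these had all its probe sets past 1.2-fold in any comparison, and 3 had at least 1 past it with BcP, 3 with 3-OHBcP and 2 between the compounds. The probe sets of 1 gene lay over 0.2 apart for 4 of the 7 genes with BcP and for 5 with 3-OHBcP. Neither count was made over all genes with several probe sets, so whether such gaps are usual on these arrays is not known. For krt91, at 13.49 on all arrays by the probe set used, which may match several transcripts, the second probe set had 13.27 with BcP, 13.44 with 3-OHBcP and 13.17 in the control, a difference of 0.27 with 3-OHBcP. The widest gap against the control was 0.34, between the 2 probe sets of anxa13 with BcP, and the difference farthest from 0 of a kept gene against the control was -0.49, that of anxa3b with 3-OHBcP.

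Among the S100 genes, s100v1 had the largest difference of the kept genes with BcP. It had 7.84 with BcP, 8.01 with 3-OHBcP and 8.19 in the control. Both treated arrays lay below the control, by -0.36 with BcP, a fold of 1.28, and by -0.18 with 3-OHBcP. The BcP difference was past 1.2-fold in each alternative that kept the gene, between -0.40 and -0.32. The other s100v gene, s100v2, was at 11.74 with BcP, 11.66 with 3-OHBcP and 11.66 in the control, so that it lay 0.08 above the control with BcP.

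The gene s100w was at 11.39 with BcP, 11.54 with 3-OHBcP and 11.53 in the control, where the BcP array alone stood lower, by -0.14. The gene s100u was at 9.47 with BcP, 9.44 with 3-OHBcP and 9.42 in the control. The gene s100z was equal on all arrays at 5.93. Below the filter, s100b, whose mammalian counterpart marks glial cells, was at 2.84 on all arrays, and s100a1, whose mammalian counterpart is known from heart and skeletal muscle, had 2.96 with BcP, 3.02 with 3-OHBcP and 2.90 in the control. Of the 6 kept S100 genes, 2 were lower, 2 higher and 2 equal with BcP, and 3 were lower, 2 higher and 1 equal with 3-OHBcP.

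Many of these genes lie side by side in the genome. In the RefSeq gene table of the assembly GRCz12tu, used here for gene order alone, 57 protein-coding genes meet the naming rule, and 28 of them fall in 7 runs with no other protein-coding gene between them. Neighbours did not all share 1 direction against the control. In the run krt93, krt94, krt98, krt15 and krt99, the 4 measured genes, in that order, lay 0.01, -0.04, -0.18 and -0.32 from the control with BcP. With 3-OHBcP they lay at -0.01, 0.08, 0.21 and -0.21, and krt98 was not analysed here. For 3-OHBcP against BcP they lay at -0.02, 0.12, 0.39 and 0.11. The gene krt93 was below the level filter. The kept genes krt94, krt15 and krt99 were thus all lower with BcP than in the control, and all higher with 3-OHBcP than with BcP. The largest difference between the compounds (krt15) and the largest keratin difference with BcP among the kept genes (krt99) thus come from adjacent genes, and krt99 also differed by 0.11 between the compounds.

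In the run of 7 genes from krt1-19d to krt91, which also holds cyt1 and cyt1l, krt1-19e lay 0.43 above the control with BcP and 0.47 with 3-OHBcP, while krt1-19d, krt17 and krt91 lay within 0.10 of it. The run krt5, krt8, krt18a.1 and krt18a.2 puts the type II and type I genes of a filament pair next to each other, with 0, 0.04 and -0.10 for the measured 3 with BcP. In the run krtcap2, s100a10b and s100w, the differences were 0, 0 and -0.14 with BcP. The run anxa1d, anxa1c and anxa1b had -0.06, 0 and 0.04 with BcP and 0, 0.02 and -0.09 with 3-OHBcP.

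Genes that work with keratins, annexins and S100 proteins were read from 5 partner lists. In the cornified envelope and desmosome list, 12 of 23 genes were measured and 11 kept, and 7 of these were lower, 1 higher and 3 equal with BcP (median -0.05). Over all kept genes 1945 were lower, 1979 higher and 1324 equal (median 0). The desmosomal cadherin gene dsc2l had 10.42 with BcP, 11.09 with 3-OHBcP and 11.14 in the control, and the plakophilin gene pkp1b had 10.15 with BcP, 10.39 with 3-OHBcP and 10.69 in the control. The BcP array was the low one for both, by -0.72 for dsc2l and -0.54 for pkp1b against the control, and 3-OHBcP lay 0.67 above BcP for dsc2l. These 2 of 11 were the genes past 1.2-fold with BcP, both lower, beside 9.13% of all genes in either direction and 6.19% lower. With 3-OHBcP, 7 genes of this list were lower and 4 equal (median -0.02), beside 2201 lower, 1335 higher and 1712 equal over all kept genes. Of the 11, 1 was past 1.2-fold with 3-OHBcP, beside 6.88% of all genes in either direction and 5.2% lower. This was pkp1b at -0.30, while pof1b, which encodes an actin-binding junction protein, was at -0.26. The genes icn and icn2 encode ictacalcins, S100 proteins whose names kept them out of the set. The signal of icn was 13.83 on all arrays, and that of icn2 differed by 0 with BcP and -0.01 with 3-OHBcP.

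In the hemidesmosome and basement membrane list 4 of 12 genes were measured. The plectin gene plecb, a linker of keratin filaments to the hemidesmosome, had 7.53 with BcP, 7.14 with 3-OHBcP and 7.09 in the control, a difference of 0.44 with BcP, while the hemidesmosomal collagen gene col17a1b lay at -0.27 with BcP and -0.17 with 3-OHBcP. The genes plecb and col17a1b thus lay on opposite sides of the control with BcP, and the other plectin gene, pleca, lay at -0.12 with each compound. Among these 4 genes, plecb was past 1.2-fold on the higher side with BcP and col17a1b on the lower side. Over all kept genes 2.93% were past it higher and 6.19% lower.

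In the list of epidermal regulators and adhesion genes, 7 of 13 were measured and kept. The transcription factor gene tp63 was equal on all arrays at 9.34, and the adhesion gene cdh1 (E-cadherin) lay at -0.13 with BcP and 0 with 3-OHBcP. The transcription factor gene grhl1 lay at -0.10 with BcP and 0.01 with 3-OHBcP. The splicing regulator gene esrp2 lay at -0.02 with BcP and 0.06 with 3-OHBcP. The transcription factor gene klf4 was at 8.38 with 3-OHBcP, 8.11 with BcP and 8.10 in the control, so that it was past 1.2-fold with 3-OHBcP (0.28). It was the 1 gene of the 7 past it there, beside 1.68% of all genes on the higher side. Between the compounds 5 of the 7 were higher with 3-OHBcP, 0 lower and 2 equal (median 0.08). Of all 5248 genes, 1369 were higher, 2251 lower and 1628 equal (median 0). Centring each array adds 0.02 to this comparison.

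Other intermediate filament genes had 11 of 16 measured and 5 kept. The vimentin gene vim, a filament of mesenchymal cells, was at 7.01 with BcP, 7.07 with 3-OHBcP and 7.07 in the control. The lamin gene lmnl3 and the muscle filament gene desma stood above the control with BcP, by 0.28 and 0.20, and with 3-OHBcP, by 0.17 and 0.26, and the control value of lmnl3 (5.25) was below the level filter. Of the annexin and S100 partners 3 of 6 were measured and 2 kept, and ahnak, a large protein bound by the annexin A2 complex in mammals, differed by 0.08 with BcP and -0.01 with 3-OHBcP, and the scramblase gene plscr3b by -0.07 with BcP and -0.10 with 3-OHBcP.

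**Figure D5:**
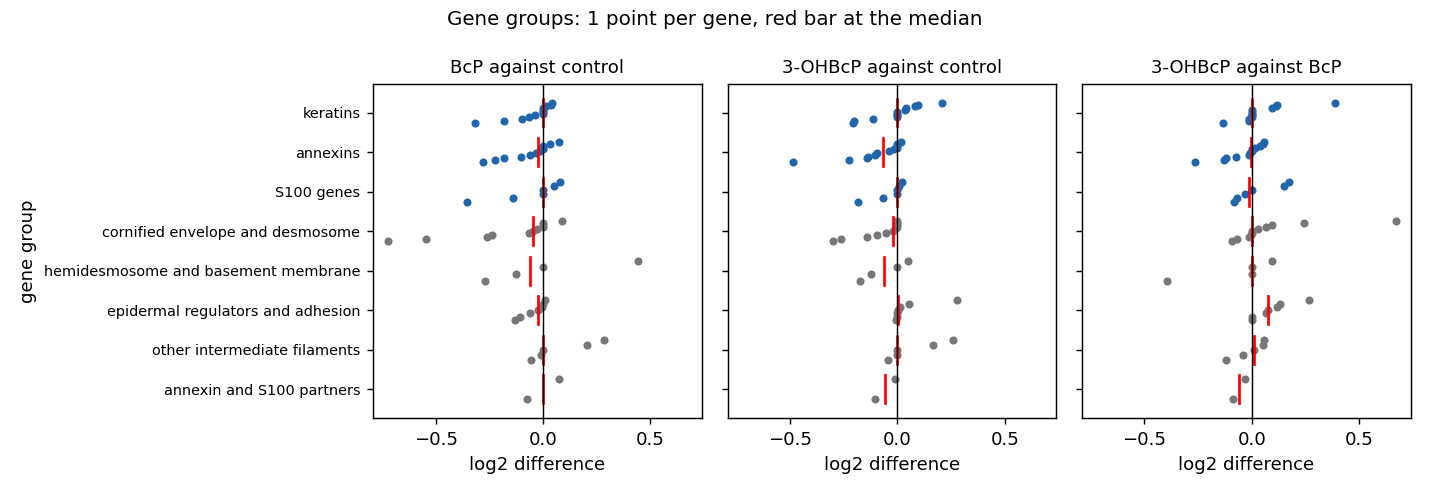
Log2 difference (x axis) of each kept gene (points) in the keratin, annexin and S100 families and in 5 partner lists (y axis), in 3 panels for the 3 comparisons, with red bars at the medians. The family medians lie between -0.07 and 0, and the widest single points belong to dsc2l of the desmosome list, at -0.72 for BcP against control and 0.67 for 3-OHBcP against BcP.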

How the data were processed

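The authors deposited 1 log2 value per probe set and array, and the submitters' processing notes name Affymetrix Expression Console for making them; the log2 scale was read from the range of the values, and its version and its summarization, background and normalization methods are not given in the sources. RNA with an integrity number above 8.5 was labelled with a 3'-primed kit, per the labels' protocols. The values were used without further scaling. The 115 array controls among 15617 probe sets were not used, and 10795 of the other 15502 had 1 annotated symbol, 135 several and 4572 none. Symbols were updated by gene identifier to RefSeq (GRCz12tu), where 10711 were found.

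Differences of log2 values were taken between arrays, and genes at least 1.2-fold and 1.5-fold apart were counted. The number of arrays limits the precision, and no detection calls were used. The procedure was tested on simulated data, where the planted differences were larger than that of any kept gene of the set. It thus checked the calculation and not how well differences as small as these are recovered. Values on every array are given for the 5 highest and 5 lowest kept genes of each comparison, krt4, krt5, evpla, ppl and genes whose probe sets disagree, and any other member may be named; from each partner list the genes farthest from 0 are named, and tp63, icn, icn2 and evplb were added after their values were seen. The members, lists and rules were chosen with earlier results of these data known. There were 8 alternatives, 1 of them (the 90th percentile filter) chosen after seeing the data. Analyses used Python 3.11.15, numpy 2.4.6 and pandas 2.3.3.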

Additional observations from a re-analysis of the deposited data

How the results depend on the processing

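The limits are 1 array per group and differences close to the gaps between probe sets of 1 gene. When every array was centred on its own median, the median log2 difference of the set was -0.046 for BcP and -0.028 for 3-OHBcP against the control and 0.018 between the compounds, in place of 0 each, and 5 genes were 1.2-fold apart with BcP in place of 3 (anxa3b and evpla joined) and 1 between the compounds in place of 2. After quantile normalization the medians were -0.024, -0.017 and 0.0062, with 2 genes 1.2-fold apart with BcP in place of 3 (anxa5b left), 1 for 3-OHBcP against the control in place of 2 and 1 between the compounds. With 32 added to the linear value these counts were 2 (krt99 left), 1 and 1. Averaging a gene's probe sets also took anxa5b below 1.2-fold with BcP. The level filter at the 75th percentile left 1 gene for 3-OHBcP against the control, and at the 90th percentile 1 with BcP, 0 with 3-OHBcP and 1 between the compounds, where fewer genes were counted. The counts at 1.5-fold were 0 under all 8 alternatives, and no difference past 1.2-fold changed sign. The medians were 0 under the 6 that did not rescale whole arrays. Most exact ties stay at 0 without such rescaling, so these medians are no separate check of the result. No paired analysis was possible because each group holds 1 array, and leaving out a replicate was not possible for the same reason. Without a level filter krt1-19e joined the genes past 1.2-fold with both compounds. When probe sets that by name may match more than 1 transcript were left out, anxa5b left with BcP and krt91 joined with 3-OHBcP. That alternative also removed anxa11a, whose only probe set was of this kind, so 32 genes were kept.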

Other observations

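Among the 7 genes below the level filter, krt1-19e alone was past 1.2-fold against the control, with both compounds and on the higher side, and its values of 4.67 to 5.13 lay near the median of all probe sets. Without a level filter, 5.32% of all genes were past 1.2-fold higher with BcP and 3.45% with 3-OHBcP. These shares include the kept genes and are not shares of the dim genes alone. Among kept genes alone the shares were 2.93% with BcP and 1.68% with 3-OHBcP. A higher value in a dim gene is thus by itself nothing particular to the set. Between the compounds, the median absolute difference of the 33 kept genes was 0.036 on the log2 scale, beside 0.039 for all genes. Of the 57 RefSeq genes that meet the naming rule, 17 are not analysed here, among them s100a11, anxa3a, krt92 and krt96, so the families are described in part.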
